A study of Mus musculus with 16 samples.

Results

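The MHC class II genes described here were 7 genes, chosen by name for their place in the class II pathway, of the 32285 genes in the deposited matrices. Of these, H2-Aa, H2-Ab1 and H2-Eb1 encode class II alpha and beta chains (called the chain genes below). Cd74 encodes the invariant chain, and H2-DMa and H2-DMb1 encode the peptide exchange factor H2-DM. Ciita encodes the class II transactivator. Only transcripts were counted, and surface protein was not measured. Their levels, the share of myeloid cells that carried them and their joint detection in single cells were followed in bone marrow stromal cell cultures of 4 mouse genotypes. All 7 passed the filter on low counts in myeloid cells. In the GRCm38 annotation (GENCODE M21, the build that the submitters' notes call mm10), H2-DMa lay at chr17:34119541-34139101, H2-DMb1 at chr17:34153072-34160230, H2-Ab1 at chr17:34257689-34269419, H2-Aa on the opposite strand at chr17:34282744-34287823 and H2-Eb1 at chr17:34305867-34316674. Cd74 lay at chr18:60803848-60812652 and Ciita at chr16:10480059-10528418.

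MHC class II molecules present peptides from the endosomes to CD4+ T cells and are carried by dendritic cells, B cells and activated macrophages. CIITA does not bind DNA itself. It is recruited to the W, X and Y boxes of class II promoters by the RFX, CREB and NF-Y factors, and in macrophages its gene is switched on by interferon gamma and held down by signals such as interleukin 10 and transforming growth factor beta. The invariant chain holds the peptide groove of a new class II molecule until cathepsins degrade it, and H2-DM then lets antigenic peptides in.

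The cells came from 12-week-old male C57BL/6J littermates and were grown for 21 days with 10 mM beta-glycerophosphate, a medium for osteoblast differentiation, in a study of what excess FGF23 and loss of DMP1 each do to osteoblasts. All 4 genotypes carried the floxed Fgf23 alleles: WT (Dmp1+/+ Fgf23 fl/fl Dmp1-cre-), Fgf23cKO (Dmp1+/+ Fgf23 fl/fl Dmp1-cre+), Dmp1KO (Dmp1-/- Fgf23 fl/fl Dmp1-cre-) and Dmp1KO Fgf23cKO (Dmp1-/- Fgf23 fl/fl Dmp1-cre+, labelled Dmp1KO/Fgf23cKO). Dmp1 was deleted in every cell, myeloid cells included, whereas the Cre recombinase was driven by the Dmp1 promoter, which is active in mature osteoblasts and osteocytes. Live cells were sorted, the cultures of a genotype were tagged and pooled in 1 droplet reaction, and 3' ends were sequenced, so that genotype and reaction cannot be told apart. Values come from 3 tagged cultures of WT, Fgf23cKO and Dmp1KO Fgf23cKO and 2 of Dmp1KO (replicates 2 and 3), the matrix of Dmp1KO replicate 1 being not analysed here. The fourth sample of each genotype holds cells without a tag and was kept out of means and tests.

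The promoters of 2 chain genes are shown because class II genes share an upstream module that CIITA reads. The letters CTNGNAACT (an X box core) and TGATTGG (the CCAAT motif of NF-Y, read on the other strand) were taken from the windows of H2-Aa, H2-Eb1 and H2-DMb1, so their presence there is no finding. The lines below give the 120 bases before each RefSeq start (GRCm38.p6), 5′ to 3′ on the strand of the gene, with both motifs in capitals. H2-Aa lies at chr17:34287824-34287943 on the minus strand and H2-Eb1 at chr17:34305747-34305866 on the plus strand.
H2-Aa: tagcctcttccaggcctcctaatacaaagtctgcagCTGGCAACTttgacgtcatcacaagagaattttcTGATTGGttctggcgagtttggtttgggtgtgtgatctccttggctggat
H2-Eb1: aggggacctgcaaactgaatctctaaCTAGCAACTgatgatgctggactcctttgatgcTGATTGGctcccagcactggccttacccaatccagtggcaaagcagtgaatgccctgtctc
The first motif began 84 and 94 bases before the start of H2-Aa and H2-Eb1, and the second 50 and 61 bases before it. Both strands of every window were searched, and the motifs do not overlap each other. RefSeq entries matched 4 of the 7 members. H2-DMb1 also held both motifs, 97 and 63 bases before its RefSeq start, and neither of the 2 entries of H2-DMa held either within 250 bases. Of 32851 promoter windows of 250 bases, 3.47% held the first motif and 7.23% the second. Both in this order within 40 bases stood in 5 windows (0.0152%), those of H2-Aa, H2-Eb1, H2-DMb1, BC051142 and 1700048F04Rik. A match is a description of letters and not a binding site. H2-Ab1, Cd74 and Ciita were named only.

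The matrices held 17793 cells in 15 samples. Clustering without the 7 members, and naming by marker genes, put 11802 of the 14577 cells of tagged cultures into the myeloid class and 895 into the stromal class, so most cells of these stromal cultures carried myeloid markers. Depth differed between genotypes, with median UMIs per cell (unique molecular identifiers, each counting 1 captured transcript) of 7137 to 7275.5 in WT cultures, 29752.5 to 34988 in Fgf23cKO, 20016.5 to 22186 in Dmp1KO and 32378 to 33881 in Dmp1KO Fgf23cKO. Dmp1 counted 442 to 1770 UMIs per WT culture, 152 to 1177 per Fgf23cKO culture, 0 and 3 in Dmp1KO and 26 to 76 in Dmp1KO Fgf23cKO, and Fgf23 was too sparse to check a label (0 to 8 UMIs per culture). No barcode was shared within a genotype, and 44 of 19728 were shared between genotypes. Levels below are counts per 1000000 UMIs of the myeloid cells of a culture (CPM), and changes are log2 fold changes with their SE from 1 edgeR quasi-likelihood fit over the 4 genotypes, with Benjamini-Hochberg adjusted p called under 0.1 over all 13718 genes tested. Labels do not say whether the cultures came from separate mice, so p-values measure the spread between these cultures.

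**Figure D1:**
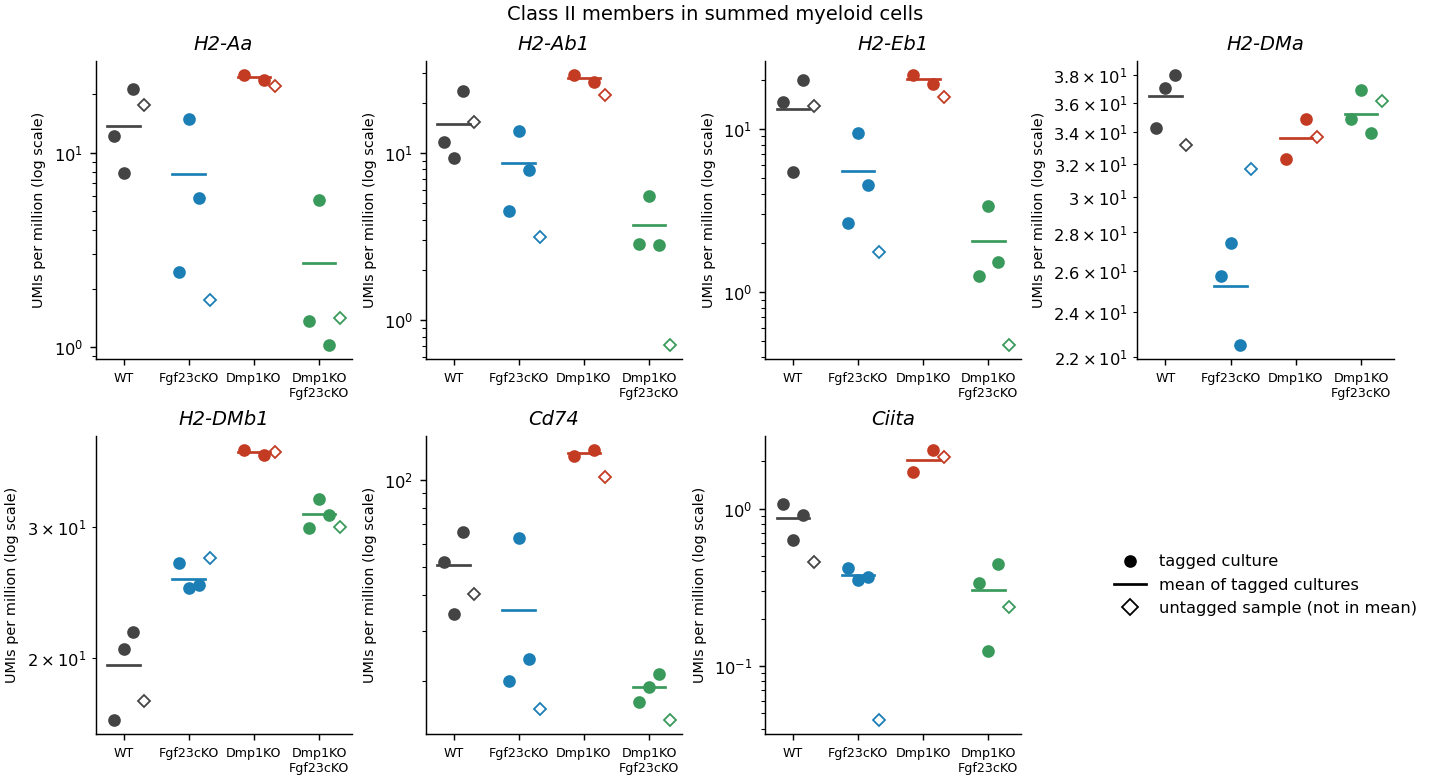
CPM of each class II member in the myeloid cells of every culture, on log axes, by genotype, with lines at the mean of tagged cultures and untagged samples as open diamonds. The Dmp1KO cultures lay highest for Cd74 (121 and 127), Ciita, H2-Aa, H2-Ab1 and H2-DMb1, and the Dmp1KO Fgf23cKO cultures lay low for Cd74 (17.0 to 21.2), whereas H2-DMa spanned 22.5 to 38.0 over all tagged cultures.

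Myeloid cells of Dmp1KO cultures carried more class II transcripts than those of WT, and loss of Fgf23 on the Dmp1KO background went with far lower levels. Against WT, 6 of the 7 members rose in Dmp1KO and none fell. Against Dmp1KO, all 7 fell in Dmp1KO Fgf23cKO, and Cd74, the chain genes and Ciita by 8.01-fold to 11.9-fold. Changes were common across all genes in these comparisons, with 70% called between Dmp1KO and WT (35.7% higher and 34.3% lower) and 67.6% between Dmp1KO Fgf23cKO and Dmp1KO (29.8% higher and 37.8% lower). The median log2 fold change of the 7 members was 1.14 in Dmp1KO against WT, beside 0.0035 over all genes tested, and -3.07 in Dmp1KO Fgf23cKO against Dmp1KO, beside -0.051 over all genes. The CPM of the cultures did not overlap for 79.0% of all genes in the first of these comparisons and for 78.5% in the second, so groups that do not overlap are the usual case here. The scaling factors of the Dmp1KO libraries (0.8479 and 0.8679) stood below those of the other genotypes. Without them, all genes shifted by -0.25 in Dmp1KO against WT and by 0.29 in Dmp1KO Fgf23cKO against Dmp1KO (log2), and higher genes made up 31.4% and 71.0% of the calls in place of 51.0% and 44.1%.

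Ciita, the switch of the pathway, was sparse. Its level was 1.06, 0.634 and 0.912 CPM in the WT cultures, 0.416, 0.351 and 0.368 in Fgf23cKO, 1.70 and 2.37 in Dmp1KO and 0.339, 0.125 and 0.447 in Dmp1KO Fgf23cKO. Every Dmp1KO culture lay above and every Fgf23cKO and Dmp1KO Fgf23cKO culture below the WT range, and the latter 2 genotypes overlapped. Ciita rose by 1.52 ± 0.31 in Dmp1KO against WT (adjusted p = 0.00064). It fell by 3.07 ± 0.32 in Dmp1KO Fgf23cKO against Dmp1KO (adjusted p = 1.7e-06), by 1.55 ± 0.43 against WT (adjusted p = 0.0075) and by 1.15 ± 0.44 in Fgf23cKO against WT (adjusted p = 0.048). Between Dmp1KO Fgf23cKO and Fgf23cKO the difference was -0.40 ± 0.48 (adjusted p = 0.58).

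The genotype means of the chain genes had the same order as those of Ciita, with a wide spread between cultures in the genotypes where they were low. Within a genotype the cultures did not follow Ciita. Replicate 2 of Fgf23cKO and replicate 2 of Dmp1KO Fgf23cKO had the lowest Ciita of their genotype and the highest chain genes. H2-Aa was at 12.2, 7.88 and 21.1 CPM in WT, at 2.43, 14.96 and 5.82 in Fgf23cKO, at 25.2 and 23.7 in Dmp1KO and at 1.36, 5.71 and 1.02 in Dmp1KO Fgf23cKO. H2-Ab1, its partner chain, was at 11.7, 9.36 and 23.5 CPM in WT, at 4.51, 13.6 and 7.91 in Fgf23cKO, at 29.4 and 26.4 in Dmp1KO and at 2.85, 5.55 and 2.81 in Dmp1KO Fgf23cKO. H2-Eb1, an I-E beta chain gene whose protein was not measured, was at 14.5, 5.42 and 19.8 CPM in WT and at 2.64, 9.41 and 4.54 in Fgf23cKO. It was at 21.4 and 18.7 in Dmp1KO and at 1.25, 3.38 and 1.53 in Dmp1KO Fgf23cKO. For each of the chain genes the Dmp1KO Fgf23cKO cultures lay below every WT and every Dmp1KO culture. WT replicate 3 was the highest WT culture and Fgf23cKO replicate 2 the highest Fgf23cKO culture for all 3 genes, and for H2-Eb1 WT replicate 3 lay inside the Dmp1KO range. Against WT in Dmp1KO, H2-Ab1 rose by 1.14 ± 0.33 (adjusted p = 0.0075), H2-Aa by 1.08 ± 0.47 (adjusted p = 0.061) and H2-Eb1 by 0.88 ± 0.38 (adjusted p = 0.058). The calls of H2-Aa and H2-Eb1 in this comparison were lost with DESeq2 (adjusted p = 0.32 and 0.30), without scaling factors (0.14 and 0.16) and without WT replicate 2 (0.24 and 0.27). In Dmp1KO Fgf23cKO against Dmp1KO, H2-Aa fell by 3.42 ± 0.53 (10.7-fold, adjusted p = 7.2e-05), H2-Ab1 by 3.17 ± 0.36 (9.02-fold, adjusted p = 3.5e-06) and H2-Eb1 by 3.57 ± 0.45 (11.9-fold, adjusted p = 9.7e-06).

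Cd74 had the same order of genotypes as the chain genes. Its level was 51.8, 34.2 and 66.0 CPM in WT, 19.99, 62.6 and 23.9 in Fgf23cKO, 121 and 127 in Dmp1KO and 17.0, 19.1 and 21.2 in Dmp1KO Fgf23cKO. The means were 50.7 ± 15.9 (SD, n = 3), 35.5 ± 23.5 (n = 3), 124 ± 4.63 (n = 2) and 19.1 ± 2.09 (n = 3). The Dmp1KO cultures stood apart from all others, and Fgf23cKO replicate 2 lay among the WT cultures while the other two Fgf23cKO cultures lay near Dmp1KO Fgf23cKO. Cd74 rose by 1.55 ± 0.32 in Dmp1KO against WT (2.92-fold, adjusted p = 0.00070). It fell by 3.001 ± 0.33 in Dmp1KO Fgf23cKO against Dmp1KO (8.01-fold, adjusted p = 2.6e-06) and by 1.46 ± 0.34 against WT (adjusted p = 0.0025).

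The peptide exchange genes had another order of genotypes than the chain genes, though H2-DMb1 was also highest in Dmp1KO. H2-DMb1 was at 16.5, 20.6 and 21.7 CPM in WT, at 26.8, 24.9 and 25.02 in Fgf23cKO, at 38.1 and 37.5 in Dmp1KO and at 29.9, 32.7 and 31.1 in Dmp1KO Fgf23cKO, so that no 2 genotypes overlapped and WT was lowest. It rose by 1.18 ± 0.084 in Dmp1KO against WT (adjusted p = 3.3e-08), by 0.34 ± 0.087 in Fgf23cKO (adjusted p = 0.0057) and by 0.61 ± 0.083 in Dmp1KO Fgf23cKO (adjusted p = 3.3e-05), and it fell by 0.56 ± 0.075 in Dmp1KO Fgf23cKO against Dmp1KO (adjusted p = 1.7e-05). H2-DMa was at 34.3, 37.0 and 38.0 CPM in WT, at 25.8, 27.5 and 22.5 in Fgf23cKO, at 32.3 and 34.9 in Dmp1KO and at 34.9, 36.9 and 33.9 in Dmp1KO Fgf23cKO. Only the Fgf23cKO cultures lay outside the range of the others, and H2-DMa fell there by 0.56 ± 0.076 against WT (adjusted p = 5.3e-05). Its difference between Dmp1KO and WT was 0.13 ± 0.075 (adjusted p = 0.15) and turned to -0.13 without scaling factors (adjusted p = 0.16). The call of H2-DMa in Dmp1KO Fgf23cKO against Dmp1KO (-0.22 ± 0.071, adjusted p = 0.016) was on the scaled values alone, since the difference was 0.072 without the factors (adjusted p = 0.40) and the CPM overlapped. In sums of cells thinned to 2000 UMIs, neither H2-DMa (-0.27, adjusted p = 0.18) nor H2-DMb1 (-0.31, adjusted p = 0.14) passed in this comparison.

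In Fgf23cKO against WT, 1 member rose (H2-DMb1) and 4 fell (Ciita, H2-DMa, H2-Ab1 and H2-Eb1), where 51.1% of all genes were called (26.0% higher and 25.1% lower) and 49.9% did not overlap. H2-Ab1 fell by 0.82 ± 0.37 (adjusted p = 0.091) and H2-Eb1 by 1.26 ± 0.45 (adjusted p = 0.038), both with overlapping cultures, and the differences of H2-Aa (-0.87 ± 0.54, adjusted p = 0.22) and Cd74 (-0.53 ± 0.33, adjusted p = 0.21) did not pass. In sums of cells thinned to 2000 UMIs, 2 of 6 members tested were called, both lower (H2-Eb1 and Cd74). Of all genes, 25.4% were called there (12.8% higher and 12.5% lower). H2-DMa (-0.28, adjusted p = 0.35) and H2-DMb1 (0.28, adjusted p = 0.46) did not pass. Depth was then equal per cell but not per culture. The Fgf23cKO cultures had 323 to 423 myeloid cells and the WT cultures 840 to 1666 before thinning. Without WT replicate 3 the count was 1 higher (H2-DMb1) and 1 lower (H2-DMa), where 44.4% of all genes were called. Without Fgf23cKO replicate 2, H2-Aa (-1.73, adjusted p = 0.020) and Cd74 (-1.21, adjusted p = 0.0004) passed as well, where 50.5% of all genes were called. In Dmp1KO Fgf23cKO against WT, 1 member rose (H2-DMb1) and 5 fell, where 59.7% of all genes were called (29.7% higher and 30% lower) and 61.5% did not overlap. H2-Eb1 fell most (2.69 ± 0.50, adjusted p = 0.00045), followed by H2-Aa (2.35 ± 0.59, adjusted p = 0.0045) and H2-Ab1 (2.04 ± 0.40, adjusted p = 0.00069), and H2-DMa differed by -0.091 ± 0.071 (adjusted p = 0.30). In Dmp1KO Fgf23cKO against Fgf23cKO, 2 members rose and 4 fell, where 35.9% of all genes were called (15.8% higher and 20% lower) and 40.4% did not overlap. H2-DMa rose by 0.47 ± 0.072 (adjusted p = 0.00057) and H2-DMb1 by 0.27 ± 0.077 (adjusted p = 0.020) with no overlap. Neither passed in sums of cells thinned to 2000 UMIs (0.088, adjusted p = 0.88, and 0.35, adjusted p = 0.46). In these thinned sums, 0 of 6 members tested were called by edgeR, beside 9.57% of all genes. Of the 6 members, 1 (H2-Aa) had an unadjusted p under 0.05. Unthinned, the 3 chain genes and Cd74 overlapped between the genotypes, and none of these 4 calls held without Fgf23cKO replicate 2 or without Dmp1KO Fgf23cKO replicate 1.

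The effect of the Fgf23 deletion differed between the Dmp1 backgrounds for all 7 members, 6 with a lower and 1 with a higher difference, in a test that called 63.9% of all genes (30% higher and 33.9% lower). Without scaling factors, all genes shifted by 0.27 in this test and higher genes made up 66.5% of its calls in place of 47.0%. The difference of the log2 effects, Dmp1KO background minus Dmp1+/+ background, was -2.47 ± 0.47 for Cd74 (adjusted p = 0.00043), -1.92 ± 0.59 for Ciita (adjusted p = 0.012) and -0.91 ± 0.12 for H2-DMb1 (adjusted p = 1.3e-05). It was -2.56 ± 0.79 for H2-Aa (adjusted p = 0.013), -2.35 ± 0.53 for H2-Ab1 (adjusted p = 0.0017) and -2.32 ± 0.67 for H2-Eb1 (adjusted p = 0.0091). H2-DMa alone had a positive difference (0.34 ± 0.10, adjusted p = 0.012). Without cluster 5, described below, the values of Ciita (-0.87, adjusted p = 0.26) and H2-Aa (-1.63, adjusted p = 0.11) no longer passed, and in sums of cells thinned to 2000 UMIs those of H2-DMa (0.0085, adjusted p = 0.98) and H2-DMb1 (-0.58, adjusted p = 0.12) did not. The comparisons share cultures and are not independent of each other.

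Because the share of cells with a transcript moves with depth, 2000 UMIs were drawn at random from each myeloid cell, and 30 WT and 2 Dmp1KO cells with fewer were left out. A cell with at least 1 UMI of the 3 chain genes made up 1.57%, 1.39% and 1.71% of the myeloid cells of the WT cultures, 1.45%, 1.55% and 0.236% in Fgf23cKO, 5.87% and 5.02% in Dmp1KO and 1.19%, 0.642% and 1.53% in Dmp1KO Fgf23cKO. Both Dmp1KO cultures lay above the rest, and the other 3 genotypes overlapped. The mean was 5.44% ± 0.597 (SD, n = 2) in Dmp1KO and 1.56% ± 0.163 (n = 3) in WT, with an exact two-sided permutation p of 0.2, the smallest that 2 against 3 cultures can give. In stromal cells, which should lack class II genes, the share thinned the same way was 2.19% in WT, 1.31% in Fgf23cKO, 3.89% in Dmp1KO and 2.95% in Dmp1KO Fgf23cKO, from 5, 2, 6 and 7 positive cells. The myeloid share lay below the stromal share in every WT and Dmp1KO Fgf23cKO culture and in 1 of 3 Fgf23cKO cultures, the other two having 0 of 37 positive stromal cells each, so that detection of 1 UMI is not read as expression in these genotypes. As given below, the stromal UMI ratios of H2-Ab1 to H2-Aa lay above the myeloid ones, on few H2-Aa UMIs. Without thinning, the myeloid shares were 3.58% in WT, 10.7% in Fgf23cKO, 22.5% in Dmp1KO and 8.18% in Dmp1KO Fgf23cKO. Median UMIs per cell were 7630.5 to 8143 in the WT myeloid and 10524 to 14216 in the WT stromal cells, and 21287 and 23302 against 9881 and 11276 in Dmp1KO.

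At 3 or more chain UMIs in a thinned cell, 0 of 752 stromal cells were positive, which allows a share of up to 0.399% over all genotypes pooled. Each genotype was its own reaction, and the limit within a genotype is higher. The Dmp1KO cultures had 77 and 115 stromal cells before thinning. In myeloid cells the share with 3 or more chain UMIs was 0.844%, 0.482% and 0.927% in WT and 0.291%, 0.619% and 0.236% in Fgf23cKO. It was 2.35% and 1.65% in Dmp1KO and 0.132%, 0.161% and 0 in Dmp1KO Fgf23cKO. The last 3 lay below the pooled stromal limit, as did the Fgf23cKO cultures at 0.291% and 0.236%. The Dmp1KO cultures lay above all others and the Dmp1KO Fgf23cKO cultures below all others. The Dmp1KO Fgf23cKO cultures had 755, 623 and 391 myeloid cells and the Fgf23cKO cultures 344, 323 and 423. The order of these 2 genotypes therefore rests on very few positive cells. The mean was 2.001% ± 0.500 in Dmp1KO, 0.751% ± 0.236 in WT, 0.382% ± 0.207 in Fgf23cKO and 0.0977% ± 0.0857 in Dmp1KO Fgf23cKO. The exact permutation p of Dmp1KO Fgf23cKO was 0.1 against WT and 0.1 against Fgf23cKO, the smallest for 3 against 3, and 0.2 against Dmp1KO. Cd74 was found in 10.3% and 9.88% of thinned Dmp1KO myeloid cells, beside 2.74% ± 0.299 in WT, 1.61% ± 0.753 in Fgf23cKO and 1.85% ± 0.493 in Dmp1KO Fgf23cKO. Its stromal share was 2.59% in Dmp1KO, 1.03% in WT and 0 in the other two genotypes. Ciita was found in 0.517% of thinned Dmp1KO cells, in 0.168% of WT cells, in 0.0442% of Dmp1KO Fgf23cKO cells and in 0 of 1090 Fgf23cKO cells, which allows up to 0.275%, and in 0 of 752 stromal cells. H2-DMa was found in 6.34% to 7.25% and H2-DMb1 in 3.59% to 6.52% of thinned myeloid cells as means of the 4 genotypes. In stromal cells these shares were 1.64% to 2.42% and 0.654% to 4.61%, and in WT the stromal share of H2-DMb1 (4.61%) was above the myeloid one (3.59%), as was its level (24.3 against 19.6 CPM).

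**Figure D2:**
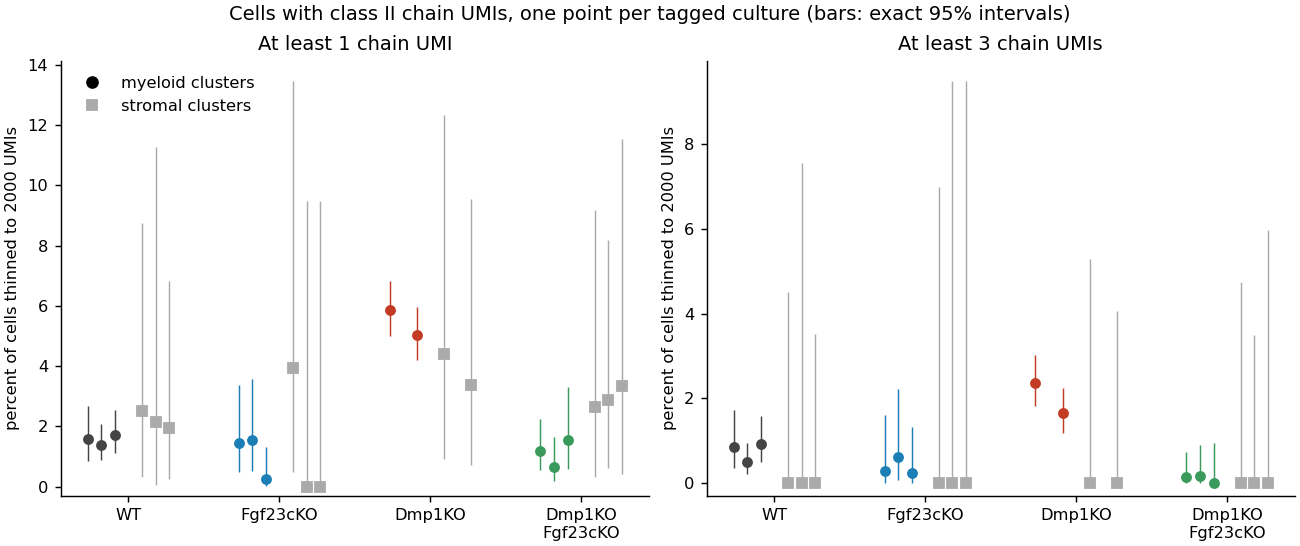
Share of thinned myeloid cells (2000 UMIs each) with at least 1 and at least 3 UMIs of H2-Aa, H2-Ab1 and H2-Eb1 together, by culture, with exact 95% binomial intervals that cover counting error only, and stromal cells as squares. With at least 1 UMI the stromal squares reach the myeloid values in WT and Dmp1KO Fgf23cKO and in 1 of 3 Fgf23cKO cultures, and with at least 3 UMIs the stromal share is 0 and the Dmp1KO cultures stand at 2.35% and 1.65%.

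The class II level of a culture rested on a few cells. The 1% of myeloid cells with most chain UMIs held 91.0%, 81.4% and 92.6% of all chain UMIs in the WT cultures, 78.3%, 92.0% and 87.2% in Fgf23cKO, 54.3% and 55.9% in Dmp1KO and 66.5%, 86.9% and 50.0% in Dmp1KO Fgf23cKO. Single cells carried 330 of the chain UMIs in Fgf23cKO replicate 2 (61.1%), 227 in Fgf23cKO replicate 3 (76.2%) and 221 in Dmp1KO Fgf23cKO replicate 2 (63.0%), whereas the highest Dmp1KO cells, with 266 and 268 UMIs, held 5.01% and 6.58%. Without the highest cell of each culture, the 6 members called higher in Dmp1KO against WT and the 7 called lower in Dmp1KO Fgf23cKO against Dmp1KO kept these counts. Of all genes, 70.04% and 67.65% were called in these comparisons. In Fgf23cKO against WT, 6 members were then called lower, H2-Aa (-2.32, adjusted p = 0.0025) and Cd74 (-1.65, adjusted p = 0.0039) being added, where 25.16% of all genes were lower. None was then called lower in Dmp1KO Fgf23cKO against Fgf23cKO, where 19.95% of all genes were lower.

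Cells with 10 or more chain UMIs numbered 211 of 11802. They made up 31 of 3921 WT cells (0.791%), 6 of 1090 Fgf23cKO cells (0.550%), 164 of 5022 Dmp1KO cells (3.27%, with 86 and 78 in the 2 cultures) and 10 of 1769 Dmp1KO Fgf23cKO cells (0.565%), in counts that were not thinned. H2-Aa and H2-Ab1 were each detected in 210 and H2-Eb1 in 205, which the choice by their sum largely fixes and which is no finding. Cd74, outside that sum, was detected in all 211, H2-DMa in 183 (86.7%), H2-DMb1 in 181 (85.8%) and Ciita in 83 (39.3%). The pooled values are mostly those of Dmp1KO cells. By genotype, Ciita was detected in 45.2% of these cells in WT, 66.7% in Fgf23cKO, 39.0% in Dmp1KO and 10% in Dmp1KO Fgf23cKO. Beside 10273 cells with no chain UMI, the level of Cd74 was 3125 against 11.6 CPM, that of Ciita 40.5 against 0.310, that of H2-DMa 165 against 30.1 and that of H2-DMb1 177 against 28.2. The 2 peptide exchange genes were thus also found in cells without chain UMIs. The median depth was 15940 UMIs in the cells with 10 or more chain UMIs and 18258 in those with none. Within cells without chain UMIs, Cd74 was at 20.8 CPM in Dmp1KO, 6.98 in WT, 3.47 in Fgf23cKO and 4.92 in Dmp1KO Fgf23cKO. In stromal cells, which should lack it, Cd74 was also highest in Dmp1KO, at 12.1 CPM against 2.55 in WT, 1.05 in Fgf23cKO and 1.08 in Dmp1KO Fgf23cKO, so these low counts are not read as a level of the cells.

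The 211 cells came from clusters chosen by pan-myeloid markers, so their Tyrobp, Fcer1g, Lyz2, Csf1r, Laptm5 and Ctss, detected in 211 of 211, are no finding, and cells with no chain UMI carried these genes at 98.1% or more. Of 14 dendritic cell markers, 7 were at 0, among them the defining Flt3, Zbtb46, Xcr1, Ccr7 and Cd209a, while Irf8 (86.7%) and Bst2 (81.0%), which macrophages also transcribe, were common and Batf3 was found in 26.5%. All 9 T or NK cell and all 6 mast cell markers were at 0. Of 8 B cell markers 5 were at 0, Cd79a included, but Ighm, the immunoglobulin mu heavy chain gene, was detected in 119 cells (56.4%), beside 5.14% of cells without chain UMIs. Ighm also moved with genotype in the cells without chain UMIs, at 12.2% in Dmp1KO, 0.609% in WT, 0.821% in Fgf23cKO and 1.35% in Dmp1KO Fgf23cKO. Its part in the result was not tested. Of the marker genes, 1 is given by genotype after its values were seen. Ccr2, a monocyte chemokine receptor, was detected in 77.4% of the 31 WT cells and 6.10% of the 164 Dmp1KO cells.

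The clusters, which were made without the 7 members, were themselves split by genotype, with 2818 of the 3921 WT but 14 of the 5022 Dmp1KO myeloid cells in cluster 1, and 48 WT cells of 2717 in cluster 0. The clusters that held most chain UMIs can therefore not be told apart from the genotypes. In WT, 58.7% of the chain UMIs lay in cluster 15, an osteoclast-like cluster led by Mmp9, Acp5 and Ctsk, at 261, 177 and 353 chain CPM in the 3 cultures. Of the 31 WT cells with 10 or more chain UMIs, 16 lay there, yet among the 31 Mmp9 was detected in 6.45%, Ctsk in 12.9% and Acp5 in 25.8%, beside 3.07%, 14.1% and 9.77% of the WT cells with no chain UMI, and Calcr and Oscar in 0. In Dmp1KO, 53.3% lay in cluster 5, at 331 and 277 chain CPM, and 21.9% in cluster 0, at 284 and 98.3. In Fgf23cKO, cluster 0, which was led by F13a1 and Pstpip2, held 58.3%, at 5.30, 61.2 and 3.19 chain CPM in the 3 cultures. That share rested on replicate 2, with 510 of the 569 UMIs, and was 13.5% without it. In Dmp1KO Fgf23cKO, cluster 0 held 78.0%, at 5.53, 17.9 and 3.52 chain CPM, and 61.2% without replicate 2. Cluster 5 held 17.6% and 19.4% of the myeloid cells of the Dmp1KO cultures, 1.24% to 4.73% in Fgf23cKO, 2.25% to 2.30% in Dmp1KO Fgf23cKO and 0.0707% to 0.238% in WT. Its leading genes were Cd74, H2-Aa, Ighm, H2-Eb1 and H2-Ab1, so that it stays unnamed, and its 40 Dmp1KO Fgf23cKO cells carried 19.6 chain CPM against 304 in its 927 Dmp1KO cells. Of the 1003 cells of cluster 5 in tagged cultures, 927 were Dmp1KO, so its cells in the other genotypes were few.

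**Figure D3:**
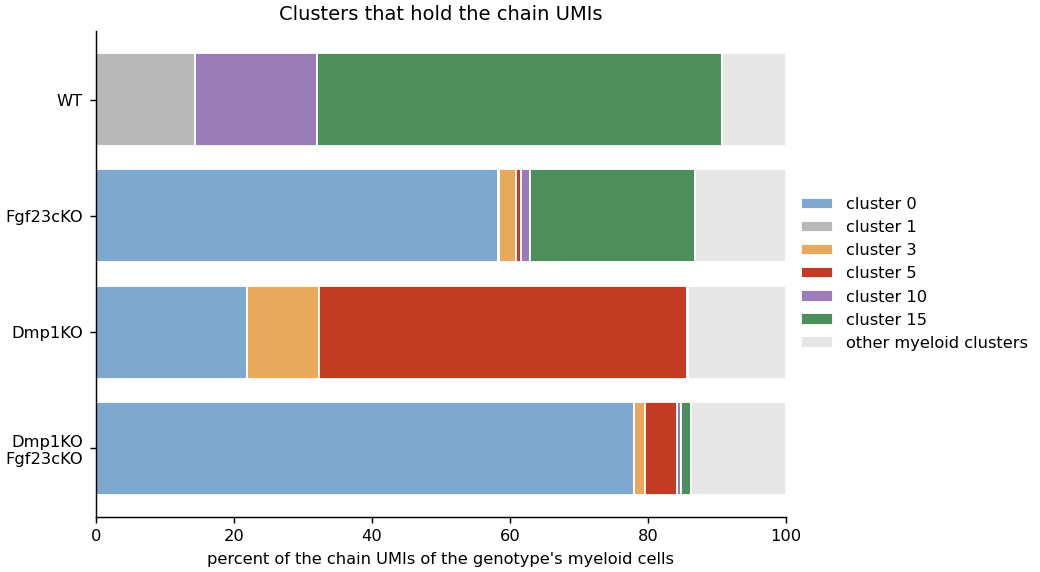
Percent of each genotype's chain UMIs (H2-Aa, H2-Ab1 and H2-Eb1, tagged cultures) found in each myeloid cluster, as stacked bars. Cluster 15 takes 58.7% in WT, cluster 5 takes 53.3% in Dmp1KO, and cluster 0 takes 58.3% in Fgf23cKO (13.5% without replicate 2) and 78.0% in Dmp1KO Fgf23cKO.

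Leaving out cluster 5 was a choice made after its genes were seen. It takes cells led by class II genes almost only from Dmp1KO, while WT keeps its own in cluster 15, so that a lower Dmp1KO value is fixed by the choice and is given as a description. Against WT, the differences were then 0.46 for Ciita (adjusted p = 0.29), 0.083 for H2-Aa (adjusted p = 0.90), 0.33 for H2-Ab1 (adjusted p = 0.43) and -0.029 for H2-Eb1 (adjusted p = 0.96), while Cd74 (0.72, adjusted p = 0.060) and H2-DMb1 (1.04) remained called. H2-DMa was then called lower (-0.17, adjusted p = 0.082). The fall in Dmp1KO Fgf23cKO against Dmp1KO held without cluster 5 for every member except H2-DMa. The share of thinned Dmp1KO myeloid cells with a chain UMI was 3.47% without cluster 5, against 1.56% in WT, and the cultures did not overlap. Leaving out the 2 cycling clusters and the osteoclast-like cluster acted on the other side. Cluster 15, the osteoclast-like one, held 58.7% of the WT and 0.139% of the Dmp1KO chain UMIs. A lower WT value of the chain genes is therefore fixed by this choice, and the counts are given as a description. The 6 higher members of Dmp1KO against WT stayed at that count, where 69.9% of all genes were called. So did the 7 lower members of Dmp1KO Fgf23cKO against Dmp1KO (67.39%). Only H2-DMb1 (higher) was then called in Dmp1KO Fgf23cKO against WT (55.05% of all genes called). In Fgf23cKO against WT, only H2-DMa (lower) and H2-DMb1 (higher) were called (49.73%).

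**Figure D4:**
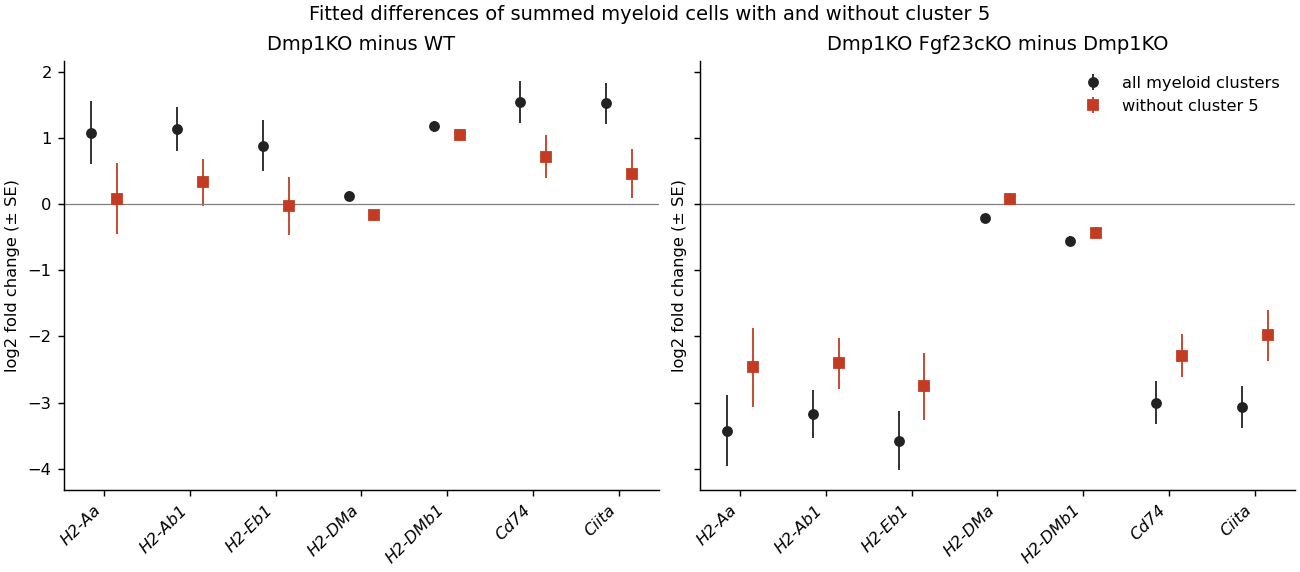
Log2 fold changes with SE of the 7 members in myeloid cells, for Dmp1KO minus WT and Dmp1KO Fgf23cKO minus Dmp1KO, with and without cluster 5. Without cluster 5 the Dmp1KO minus WT values of H2-Aa (0.083) and H2-Eb1 (-0.029) lie near 0, whereas Dmp1KO Fgf23cKO minus Dmp1KO stays below 0 for all members but H2-DMa.

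The chain genes were found together in the same cells. In thinned cells, summed over the 11 cultures, H2-Aa and H2-Ab1 were both detected in 124 cells where independence within each culture would give 5.92, a ratio of 21.0. The Dmp1KO cultures gave 55 and 36 of the 124 cells, at ratios of 17.0 and 16.7, the WT cultures 7, 8 and 11 at 64.5, 59.3 and 58.0, and the Fgf23cKO and Dmp1KO Fgf23cKO cultures 0 to 2 each, too few for a ratio. The ratio was 27.4 for H2-Aa and H2-Eb1 and 20.1 for H2-Ab1 and H2-Eb1. Cd74 was detected in 87.1% of the H2-Aa-positive, 86.3% of the H2-Eb1-positive and 71.0% of the H2-Ab1-positive cells, and the ratio was 10.7 for H2-Aa and 8.71 for H2-Ab1. Ciita, in only 33 thinned cells, shared 23 of them with Cd74 (69.7%, 8.20 times the 2.81 of independence) and 14 with H2-Aa (17.3 times). H2-DMa and H2-DMb1 were both found in 77 cells against 44.8, a ratio of 1.72, and their ratios with Cd74 were 2.53 and 2.47. A ratio cannot exceed the inverse of the share of cells with the commoner gene, so rarer genes can reach higher ratios. Differences in ratio between pairs or genotypes are therefore not read as differences in joint expression. These counts share libraries and depth, and cells of a culture are not replicates, so no test was made.

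**Figure D5:**
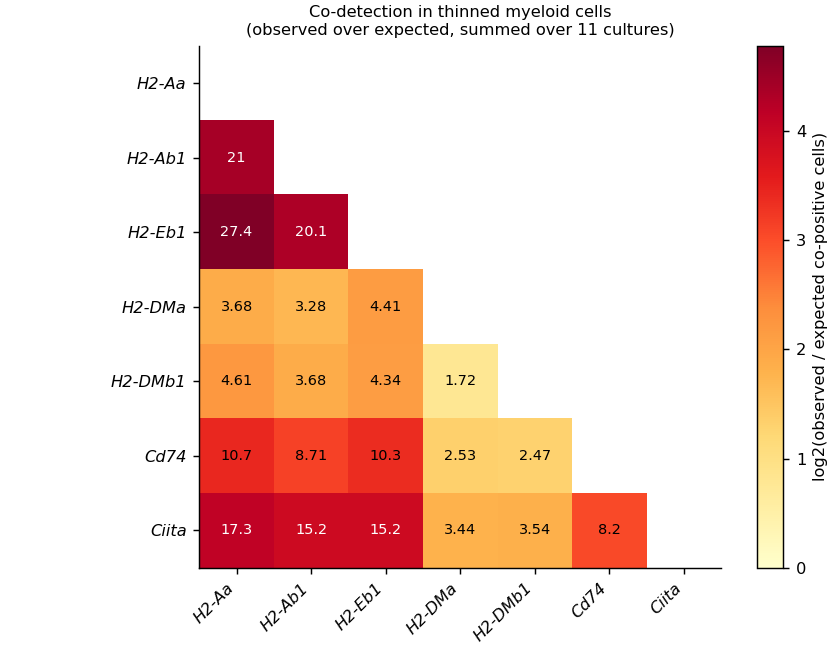
Ratio of observed to expected cells positive for both members of each pair, in thinned myeloid cells summed over tagged cultures, as a heat map with the ratio printed in each cell and its log2 as the colour. The ratios of the chain genes with each other lie between 20.1 and 27.4, those of H2-DMa with H2-DMb1 and of either with Cd74 between 1.72 and 2.53. The highest possible ratio of a pair is lower where its commoner gene is found in more cells.

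In stromal cells only H2-DMa, H2-DMb1, H2-Ab1 and Cd74 passed the filter on low counts. H2-Ab1 rose by 1.65 ± 0.39 in Dmp1KO against WT (adjusted p = 0.014) and Cd74 by 1.89 ± 0.73 (adjusted p = 0.097), 2 of 4 members where 25% of 12431 genes were called. In Dmp1KO Fgf23cKO against Dmp1KO, H2-Ab1 fell by 1.63 ± 0.34 (adjusted p = 0.023), Cd74 by 3.37 ± 0.70 (adjusted p = 0.023) and H2-DMa by 0.87 ± 0.22 (adjusted p = 0.045), where 10.6% were called. In stromal cells H2-Ab1 counted 21, 60, 75 and 74 UMIs in WT, Fgf23cKO, Dmp1KO and Dmp1KO Fgf23cKO, and H2-Aa 7, 1, 7 and 3. The UMI ratios of H2-Ab1 to H2-Aa were thus 3, 60, 10.7 and 24.7, beside 1.10, 1.13, 1.14 and 1.35 in myeloid cells. The stromal ratios lay above the myeloid ones, but their size rests on few H2-Aa UMIs. The source of the stromal H2-Ab1 counts was not tested.

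For the other genes of the class II pathway, the counts of calls stand beside the 70% and 67.6% of all genes called in the same comparisons, and no result about a list is read from them. Of 14 transcription factors of class II promoters, 4 rose and 6 fell in Dmp1KO against WT, with a median log2 fold change of -0.040 beside 0.0035 over all genes. Within the RFX complex, which binds the X box, Rfxap rose by 1.07 ± 0.10 (adjusted p = 5.1e-07) and Rfxank by 0.67 ± 0.14 (adjusted p = 0.00080), but Rfx5 fell by 0.50 ± 0.15 (adjusted p = 0.0084). Spi1, which encodes the myeloid factor PU.1, rose by 0.77 ± 0.054 (adjusted p = 2.6e-08). Irf1, a relay of interferon gamma to Ciita, differed by 0.016 ± 0.13 (adjusted p = 0.92). Of the 14, 5 rose and 6 fell in Dmp1KO Fgf23cKO against Dmp1KO, Rfxap and Rfxank among the lower (-0.86 ± 0.092 and -0.58 ± 0.12) and Rfx5 and Irf1 among the higher (0.38 ± 0.13 and 0.43 ± 0.12).

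Of 12 accessory genes, 10 were tested, and 5 rose and 3 fell in Dmp1KO against WT. Of all genes, 70% were called in that comparison and 67.6% in Dmp1KO Fgf23cKO against Dmp1KO. Ctsl, which encodes cathepsin L, a protease of the invariant chain in thymus, rose by 2.33 ± 0.15 (adjusted p = 9.9e-09), and Ctss, the invariant chain protease of macrophages and dendritic cells, by 0.51 ± 0.057 (adjusted p = 2.7e-06). Lgmn, an endosomal protease, fell by 0.42 ± 0.065 (adjusted p = 5.7e-05) and March1 (Marchf1), the ubiquitin ligase that removes class II from the surface, by 0.36 ± 0.10 (adjusted p = 0.0070). Against Dmp1KO, 4 rose and 4 fell in Dmp1KO Fgf23cKO, where Ctsl (-1.53 ± 0.14), Ctss (-0.80 ± 0.057) and Ifi30 (-0.60 ± 0.065), a thiol reductase of antigen processing, were lower, and Lgmn (0.50 ± 0.065), March1 (0.29 ± 0.10) and Cd83 (1.28 ± 0.086), which opposes that ligase, were higher. H2-Oa and H2-Eb2, with 50 and 7 UMIs in all, were not tested.

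Genes of receptors and ligands from the background on Ciita gave calls in both directions, and their part in its level was not tested. Only some genes of these lists are given with values, and the rest enter the counts alone. Of 12 receptor and signalling genes, 4 rose and 5 fell in Dmp1KO against WT, where 70% of all genes were called. In Dmp1KO Fgf23cKO against Dmp1KO, 6 rose and 3 fell, where 67.6% of all genes were called. The interferon gamma receptor gene Ifngr1 fell by 0.25 ± 0.077 (adjusted p = 0.011) in Dmp1KO against WT, and Ifngr2 rose by 0.31 ± 0.046 (adjusted p = 4.5e-05). Csf2rb, a chain of the GM-CSF receptor, rose by 1.39 ± 0.066 (adjusted p = 1.1e-09) in Dmp1KO against WT and fell by 1.12 ± 0.063 in Dmp1KO Fgf23cKO against Dmp1KO (adjusted p = 6.5e-09). Tgfbr2, a transforming growth factor beta receptor, fell by 1.08 ± 0.10 (adjusted p = 5.0e-07) and then rose by 1.28 ± 0.10 (adjusted p = 1.3e-07), and Il10 fell by 0.84 ± 0.26 (adjusted p = 0.011) and then rose by 1.46 ± 0.24 (adjusted p = 9.5e-05). Of the ligand genes themselves, Ifng counted 2 UMIs and Csf2 0 UMIs over the myeloid cells of all tagged cultures, and neither was tested. Of 7 ligand genes 4 were tested, of which 1 rose and 3 fell in Dmp1KO against WT, and 1 rose and 1 fell in Dmp1KO Fgf23cKO against Dmp1KO.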

How the data were processed

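Bone marrow stromal cell cultures were profiled by 10x Genomics 3' single-cell RNA-seq with CellPlex tags. Per the labels, the authors aligned and demultiplexed reads with Cell Ranger (7.0.1 in the matrix headers; mm10) and deposited filtered matrices of raw UMI counts per gene and cell, which are not normalized; aligner settings and annotation are not given in the sources used here. No column of unknown samples was present. Fgf23cKO, Dmp1KO and the double mutant were compared with WT and with each other. The members and gene lists were chosen with earlier results of these data known; the named genes are the 7 members, 7 pathway lists by their counts, and the 10 genes most like the members.

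Cells were used as deposited; no doublet caller was run. Counts were normalized with sctransform 0.4.2 and clustered in Seurat 5.3.0 (3000 variable genes without the 7 members, 30 principal components, resolution 0.8), giving 20 clusters. Clusters were classed by 13 marker lists; 11 clusters in which the 22 pan-myeloid markers had a mean detection of at least 70% were myeloid. Counts of myeloid cells were summed per tagged culture (7516771 to 69803445 UMIs over the genes tested) and tested with edgeR 4.0.16 (TMM factors, filterByExpr, quasi-likelihood test, Benjamini-Hochberg adjusted p under 0.1), genotype being the only term. Shares were compared over cultures by an exact two-sided permutation test after thinning cells to 2000 UMIs. Exact intervals and limits at 0 (3 counts) cover counting error only. The edgeR script was tested on simulated data. Alternatives were RLE factors, no filter, DESeq2 1.42.0, a replicate block, each culture left out, untagged samples added, a cell filter (500 genes, 20% mitochondrial UMIs), clustering with the members, a marker gate (3 UMIs), a stricter threshold (0.05), thinned sums and other depths (1000, 5000, full). Added after seeing the data were leaving out cluster 5, the highest cell of each culture, and the scaling factors, and applying the exclusion of cycling and osteoclast-like clusters to the shares.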

Additional observations from a re-analysis of the deposited data

Results flagged for a closer look

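The effect of the Fgf23 deletion differed between the Dmp1 backgrounds by the interaction test of edgeR for all 7 members. On the log2 scale, the effect on the Dmp1KO background minus that on the Dmp1+/+ background was -2.56 for H2-Aa, -2.35 for H2-Ab1, -2.32 for H2-Eb1, 0.34 for H2-DMa, -0.91 for H2-DMb1, -2.47 for Cd74 and -1.92 for Ciita. The same test called 63.9% of all genes, and each genotype was 1 droplet reaction.

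The untagged Dmp1KO sample, which entered the comparisons only in the alternative with untagged samples as replicates, also lay above the untagged WT sample. Its 429 myeloid cells carried 59.8 CPM of the 3 chain genes, against 46.5 in untagged WT. Cd74 was at 102 CPM against 40.1 and Ciita at 2.13 CPM against 0.461. In untagged WT, 84.2% of the chain UMIs came from a single cell.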

How the results depend on the processing

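Values here are log2 fold changes in myeloid sums unless a share is named, and the double mutant is Dmp1KO Fgf23cKO. Over the alternatives that left out no culture, 466 member values kept their direction and their side of the threshold, 54 no longer passed, 9 newly passed and 11 changed sign. With each culture left out in turn the counts were 427, 32, 3 and 0. The cause of each change below was not tested, beyond fewer cells or cultures where some were left out. Leaving out cluster 5, the highest cell of each culture or the scaling factors was chosen after seeing the data. WT cells were the shallowest and Ciita was below 2.5 CPM in every tagged culture, which limits both.

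In sums of cells thinned to 2000 UMIs the numbers of genes called were 2522 in Fgf23cKO against WT, 5824 in Dmp1KO against WT, 3643 in the double mutant against WT, 4522 against Dmp1KO, 952 against Fgf23cKO and 4012 in the interaction, beside 7008, 9601, 8191, 9278, 4918 and 8771. Calls lost there were H2-DMa (-0.28), H2-DMb1 (0.28) and H2-Ab1 (-0.78) in Fgf23cKO against WT, H2-DMa (-0.27) and H2-DMb1 (-0.31) in the double mutant against Dmp1KO, H2-DMa (0.088), H2-DMb1 (0.35), H2-Ab1 (-1.10), H2-Aa (-1.71), H2-Eb1 (-1.44) and Cd74 (-0.65) in the double mutant against Fgf23cKO, and H2-DMa (0.0085) and H2-DMb1 (-0.58) in the interaction, whereas Cd74 newly passed in Fgf23cKO against WT (-0.84). Ciita was not tested there. The thinned sums hold fewer UMIs than the full ones and stay unequal between cultures.

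Without the cycling and osteoclast-like clusters, the values that lost their call or changed sign were Ciita (-0.39), H2-Ab1 (-0.082), H2-Eb1 (-0.19), H2-Aa (0.42, sign changed) and Cd74 (0.76, sign changed) in Fgf23cKO against WT. In the double mutant against WT they were Ciita (0.15, sign changed), H2-Ab1 (-1.02), H2-Aa (-0.84), H2-Eb1 (-1.15) and Cd74 (-0.17), and against Fgf23cKO Ciita (0.54, sign changed), H2-Ab1 (-0.94), H2-Aa (-1.26), H2-Eb1 (-0.97) and Cd74 (-0.93). Without cluster 5, H2-Ab1 lost its call in Fgf23cKO against WT (-0.80). In Dmp1KO against WT, Ciita (0.46), H2-Ab1 (0.33) and H2-Aa (0.083) lost theirs, and H2-DMa (-0.17) and H2-Eb1 (-0.029) changed sign. In the double mutant against Dmp1KO, H2-DMa changed sign (0.083), and in the interaction Ciita (-0.87) and H2-Aa (-1.63) no longer passed. Without the highest cell of each culture, H2-Aa (-2.32) and Cd74 (-1.65) newly passed in Fgf23cKO against WT. Ciita no longer passed in the double mutant against WT (-1.21) and in the interaction (-1.45), and in the double mutant against Fgf23cKO Ciita changed sign (0.42) and H2-Ab1 (-0.65), H2-Aa (-1.21), H2-Eb1 (-1.12) and Cd74 (-0.13) no longer passed.

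With library totals and no scaling factors, H2-DMa changed sign in Dmp1KO against WT (-0.13) and in the double mutant against Dmp1KO (0.072), and H2-Aa (0.82) and H2-Eb1 (0.63) no longer passed in Dmp1KO against WT. RLE factors moved 1 call, that of H2-Aa in the double mutant against Fgf23cKO (-1.47). With DESeq2 the calls lost were H2-Ab1 in Fgf23cKO against WT (-0.80), H2-Aa (1.06) and H2-Eb1 (0.84) in Dmp1KO against WT, and H2-Aa (-1.53) and Cd74 (-0.91) in the double mutant against Fgf23cKO. With the members in the clustering they were H2-Ab1 in Fgf23cKO against WT (-0.82) and H2-Aa in the double mutant against Fgf23cKO (-1.43). With cells gated by marker UMIs they were H2-Ab1 in Fgf23cKO against WT (-0.81) and H2-Aa (-1.36), H2-Eb1 (-1.34) and Cd74 (-0.83) in the double mutant against Fgf23cKO, while H2-DMa newly passed in Dmp1KO against WT (0.19). With no filter on low counts, H2-Aa (-0.85) and Cd74 (-0.52) in Fgf23cKO against WT and H2-DMa in Dmp1KO against WT (0.24) newly passed. With untagged samples as replicates, H2-Aa (-1.27) and Cd74 (-0.73) newly passed in Fgf23cKO against WT, and in the double mutant against Fgf23cKO Ciita changed sign (0.046) and H2-Aa no longer passed (-1.16), as did H2-DMa in the interaction (0.22).

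Replicate numbers did not pair the cultures, since deviations of same-numbered cultures correlated at -0.159 to 0.0938, 0 of 15 above 0.1, and 2 of 11 cultures correlated best with their own number. With the replicate block, H2-Aa (0.79) and H2-Eb1 (0.72) did not pass in Dmp1KO against WT, and 6799, 9347, 8017, 8855, 4584 and 8481 genes were called in the order given above.

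With 1 culture left out at a time, values in Fgf23cKO against WT ran from -1.37 to -1.04 for Ciita, -1.28 to -0.27 for H2-Ab1, -1.73 to -0.34 for H2-Aa, -1.85 to -0.73 for H2-Eb1 and -1.21 to -0.25 for Cd74. In Dmp1KO against WT they ran from 0.075 to 0.18 for H2-DMa, 0.74 to 1.60 for H2-Aa and 0.45 to 1.41 for H2-Eb1, and in the double mutant against Dmp1KO from -0.27 to -0.12 for H2-DMa. In the double mutant against Fgf23cKO they ran from -1.63 to -0.76 for H2-Ab1, -2.65 to -0.62 for H2-Aa, -2.04 to -0.84 for H2-Eb1 and -1.21 to -0.25 for Cd74. By edgeR, the calls that ended in Fgf23cKO against WT were Ciita without WT replicate 1 (adjusted p = 0.11) or 3, H2-Ab1 without WT replicate 3, Fgf23cKO replicate 1 (0.29) or 3 (0.16), Dmp1KO replicate 2 (0.11) or 3 (0.11) or double mutant replicate 3 (0.10), and H2-Eb1 without WT replicate 3 or Fgf23cKO replicate 1 (0.13). In Dmp1KO against WT they were H2-Aa without WT replicate 1 (0.13) or 2 or Dmp1KO replicate 2 (0.16) or 3 (0.12), and H2-Eb1 without WT replicate 2 or Dmp1KO replicate 2 (0.20), and in the double mutant against Dmp1KO H2-DMa without Dmp1KO replicate 3 (0.29). In the double mutant against Fgf23cKO, H2-Ab1, H2-Aa and H2-Eb1 lost theirs without Fgf23cKO replicate 2 or double mutant replicate 1 or 3, Cd74 without Fgf23cKO replicate 2 or double mutant replicate 1 or 2, and H2-Aa also without WT replicate 1 or Dmp1KO replicate 2 or 3. H2-DMa newly passed in Dmp1KO against WT without Fgf23cKO replicate 3 (0.0992).

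The difference in the share of thinned cells with a chain UMI was -0.48 percentage points in Fgf23cKO minus WT, -0.43 in the double mutant minus WT and 0.044 in the double mutant minus Fgf23cKO, and 11 of 45 alternative values changed sign. The first became 0.16 at 5000 UMIs, 7.15 at full depth and 0.011 without cycling and osteoclast-like clusters, and the second 4.60 at full depth. The third became -1.42 at 5000 UMIs, -2.54 at full depth, -0.023 at 1000 UMIs, -0.28 at 3 chain UMIs, -0.13 with untagged samples, -0.037 without cluster 5 and -0.035 without cycling and osteoclast-like clusters, and ran from -0.38 to 0.28 with 1 culture left out.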

Other observations

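Genes outside class II that meet the same T cells are given here by their own values, with 70% of all genes called in Dmp1KO against WT (35.7% higher and 34.3% lower) and 67.6% in Dmp1KO Fgf23cKO against Dmp1KO (29.8% higher and 37.8% lower). The shares of the lists stand beside these and no result about a list is read from them. Of 6 costimulation genes 5 were tested. Cd80 fell by 1.5015 ± 0.090 (log2, SE; edgeR adjusted p = 6.8e-09) in Dmp1KO against WT and rose by 1.64 ± 0.084 in Dmp1KO Fgf23cKO against Dmp1KO (adjusted p = 3.0e-09). Cd40 (-0.87 ± 0.17 and 0.83 ± 0.16) and Icosl (-1.25 ± 0.16 and 1.62 ± 0.14) went the same way, whereas Cd274, the gene of the inhibitory ligand PD-L1, rose by 1.12 ± 0.11 and then fell by 1.40 ± 0.10. In Dmp1KO Fgf23cKO against Dmp1KO, 4 of the 5 rose and 1 fell. Of 13 class I genes, 7 rose and 4 fell in Dmp1KO against WT. The immunoproteasome genes Psmb8 (1.40 ± 0.050), Psmb9 (0.69 ± 0.055) and Psmb10 (1.14 ± 0.051) rose, while B2m (-0.57 ± 0.063) and Nlrc5 (-0.41 ± 0.079), the class I counterpart of Ciita, fell. Of 13 interferon-induced genes, 3 rose and 5 fell in Dmp1KO against WT, and 6 rose in Dmp1KO Fgf23cKO against Dmp1KO, where the other 7 did not pass.

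Of 6824 genes, those whose counts across thinned myeloid cells were most like the summed chain and Cd74 UMIs were Lsp1 (mean Spearman's rho over 11 cultures of 0.131), Cd52 (0.128), S100a4 (0.0855), Cst3 (0.0832), Emb (0.0827), Cxcl2 (0.0728), Cysltr1 (0.0670), Ctsh (0.0642), Cx3cr1 (0.0635) and Btg1 (0.0625). These correlations are weak, are across cells that share a library, and are given as a description.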
